A study of Mus musculus with 13 samples.

Results

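The MYC family and the MAX network are transcription factors that bind DNA in pairs. The 10 genes described here are the MYC paralogs Myc, Mycl and Mycn, their shared partner Max, the MAX-binding repressors Mxd1, Mxd3, Mxd4, Mxi1 and Mnt, and the MAX-like factor Mlx. They were chosen by name, with their expected counts across the 4 groups already known, out of 57010 genes listed. All 10 had counts, and 9 passed the filter on low counts, the exception being Mycn. Because the choice was made with these values in view, the fold changes and adjusted p of the 10 genes describe them and support nothing further.

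The RNA came from wild-type mouse embryonic fibroblasts (MEFs), primary cells grown from embryos, in 4 groups with mice 4, 5 and 6 in each. Control MEFs are labelled untreated, and the study's text states that controls received vehicle in place of etoposide. Untreated senescent MEFs had received 2 μM etoposide, a topoisomerase inhibitor that breaks DNA, for 24 h followed by 5 days of culture. In the remaining groups, senescent MEFs made the same way were given 100 μg/mL or 300 μg/mL Fucoidan-FV, sulfated polysaccharide from the brown seaweed Fucus vesiculosus, for 12 h. Control mouse 5 was sequenced as a pair of libraries, labelled 5(1) and 5(2), whose counts were summed and whose length-scaled levels (TPM) were averaged. The sources give neither the strain nor the sex of the embryos, and the etoposide dose and times come from the study's methods rather than the labels.

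A MYC protein must pair with MAX to bind the E-box sequence CACGTG, and these pairs raise transcription of genes for ribosome assembly, nucleotide synthesis and cell growth. MXD proteins, MXI1 and MNT compete for MAX and repress the same kind of site by recruiting histone deacetylases. MLX pairs with the glucose-responsive factors MLXIP and MLXIPL instead, and with some of the repressors. In fibroblasts MYC is known as an early response gene of growth factors, and MXD genes are known for their expression in cells that leave the cell cycle.

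The genes lie on 8 chromosomes of the GRCm39 build. Myc (ENSMUSG00000022346) is at chr15:61857227-61862223, Mycl (ENSMUSG00000028654) at chr4:122889408-122896282 and Mycn (ENSMUSG00000037169) at chr12:12986076-12992915. Max (ENSMUSG00000059436) is at chr12:76984043-77009009 and Mlx (ENSMUSG00000017801) at chr11:100978080-100983043. Of the repressors, Mxd1 (ENSMUSG00000001156) is at chr6:86624024-86646218, Mxd3 (ENSMUSG00000021485) at chr13:55472981-55477908, Mxd4 (ENSMUSG00000037235) at chr5:34331227-34345240, Mxi1 (ENSMUSG00000025025) at chr19:53298852-53364241 and Mnt (ENSMUSG00000000282) at chr11:74721338-74736836. Mlx shares 51.9% of its exonic bases with Psmc3ip on the opposite strand, and Mxd3 shares 31.7% with Prelid1. The library kit keeps the strand, but which strand setting was used to count is not given in the sources used here, so reads of these overlaps may not be assigned to the right gene.

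The E-box that MYC and MAX bind stands in the promoters of several network genes themselves. Windows ran from 250 bases before to 50 bases after the start of each gene's canonical transcript. In these CACGTG, which reads the same on both strands, was found in 4 of the 10 genes (40.0%), namely Max, Mlx, Mxd4 and Mxd3. Among 21770 protein-coding promoters of the same length, 1701 (7.81%) held it. Stretches of 100 bases are shown 5′ to 3′ on the strand of the gene, with CACGTG in capitals, to place the motif against the start. Those of Max (chr12:77009001-77009100, minus strand), Mlx (chr11:100977992-100978091, plus strand) and Mxd4 (chr5:34345241-34345340, minus strand) end at the base before the start. That of Mxd3 (chr13:55477755-55477854, minus strand) begins 250 bases before it, and that of Myc (chr15:61857127-61857226, plus strand) is shown as the gene whose level the results turn on most.
Max: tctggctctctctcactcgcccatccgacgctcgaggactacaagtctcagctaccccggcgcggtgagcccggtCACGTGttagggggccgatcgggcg
Mlx: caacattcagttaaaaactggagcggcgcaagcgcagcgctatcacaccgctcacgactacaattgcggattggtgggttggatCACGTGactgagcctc
Mxd4: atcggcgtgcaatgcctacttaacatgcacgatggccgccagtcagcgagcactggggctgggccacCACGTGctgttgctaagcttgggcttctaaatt
Mxd3: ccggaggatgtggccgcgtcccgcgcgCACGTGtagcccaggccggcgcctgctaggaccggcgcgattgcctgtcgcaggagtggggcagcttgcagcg
Myc: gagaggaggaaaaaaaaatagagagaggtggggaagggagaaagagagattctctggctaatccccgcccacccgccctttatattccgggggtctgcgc
The motif began 25 bases before the start in Max, 16 in Mlx, 33 in Mxd4 and 223 in Mxd3. For Mxd3 the canonical start lies inside the gene span given above, and so do its stretch and motif. The Mxi1 window also lies inside the span of its gene, and windows at other starts could give another count. The Myc window held no CACGTG, which says only that these letters are not in it. A match is a description of the sequence and was not tested for binding.

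The libraries held 22782536 to 31278750 counts each. Levels are given as counts scaled to the library size with TMM factors (CPM) for comparisons between groups, and as RSEM's TPM, which are also scaled per length, for comparisons between genes. A differentially expressed gene (DEG) has an adjusted p under 0.05 by edgeR's quasi-likelihood test over 15034 genes and an absolute log2 fold change over 1. In bulk RNA, fewer cells of a type and less RNA per cell cannot be told apart. The 10 fibroblast markers summed to between 31800 and 53800 CPM, mostly from Fn1, while the endothelial and epithelial lists stayed at or under 2.04 CPM. Single fibroblast markers differed between groups. The mean of Dcn was 1.06 CPM in control, 16.2 in senescent, and 81.6 and 75.7 CPM with the low and the high dose. In the same order, that of Vim was 5590, 7730, 4230 and 4870 CPM. The 5 neural markers summed to 593 to 1100 CPM in control, 655 to 1090 in senescent and 206 to 233 CPM in Fucoidan-FV-treated MEFs, which was mostly Nes, whose mean was 823 CPM in senescent MEFs and 145 and 154 CPM with the low and the high dose. Macrophage markers summed to 2.72 to 16.6 CPM, and the muscle list to 67.8 to 359 CPM, carried by Acta1 and Des. The part of these lists in the results on the network was not tested. The 17 proliferation genes summed to 1230 to 1680 CPM in control MEFs, 130 to 194 in senescent MEFs, 75.9 to 100.0 with 100 μg/mL and 77.7 to 105 with 300 μg/mL Fucoidan-FV.

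Myc, which encodes the growth-driving paralog found in most dividing cells, was lower in senescent than in control MEFs and lower again with either dose. Control MEFs of mice 4, 5 and 6 had 118.6, 108.5 and 165.9 CPM, and senescent MEFs had 57.11, 68.67 and 75.74 CPM. With 100 μg/mL Fucoidan-FV the values were 27.92, 27.94 and 30.48 CPM, and with 300 μg/mL they were 37.88, 29.66 and 31.81 CPM. The control, senescent and treated ranges did not overlap, while the treated groups overlapped each other. From control to senescent MEFs Myc fell by 0.96 on the log2 scale (SE 0.20, adjusted p = 0.0077), just under the fold threshold of a DEG, which it passed without control mouse 4 or 5 (-1.05 and -1.09) or senescent mouse 6 (-1.06). With Fucoidan-FV it was 2.33-fold lower at 100 μg/mL and 2.03-fold lower at 300 μg/mL than in untreated senescent MEFs.

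Mycl, a paralog that heterodimerizes with MAX as MYC does, showed the same order of groups at a lower level. The control values were 32.38, 32.96 and 33.83 CPM in mice 4, 5 and 6, against 16.59, 27.03 and 14.07 CPM in senescent MEFs. The values with 100 μg/mL Fucoidan-FV were 4.789, 5.187 and 4.567 CPM, and with 300 μg/mL 10.43, 8.713 and 3.484 CPM. No treated sample reached the lowest senescent sample, and senescent mouse 5 stood well above the other senescent mice. Mycn, the paralog of embryonic and neural tissue, was near the floor of detection. Its counts were 15, 101 and 0 in control MEFs of mice 4, 5 and 6 and at most 8 in every other sample, and 91 of the 101 came from library 5(1). It failed the filter and was not tested.

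Max itself differed little between the groups. Its levels were 72.92, 78.19 and 93.18 CPM in control MEFs, 96.67, 99.45 and 87.36 CPM in senescent MEFs, 82.23, 75.68 and 97.82 CPM with 100 μg/mL and 93.36, 79.63 and 81.21 CPM with 300 μg/mL Fucoidan-FV. The ranges of all groups overlapped, the log2 differences in the 6 comparisons were between -0.16 and 0.21, and the lowest adjusted p was 0.492. For senescent against control MEFs the approximate 95% interval of the difference was -0.12 to 0.55. It comes from the SE under a normal distribution, which makes it narrow for so few mice. Mlx varied more between mice than between groups, from 12.83 CPM in control mouse 6 to 37.79 CPM in mouse 6 with 300 μg/mL Fucoidan-FV, and it passed no test. The share of its exons under Psmc3ip limits what these values mean.

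**Figure D1:**
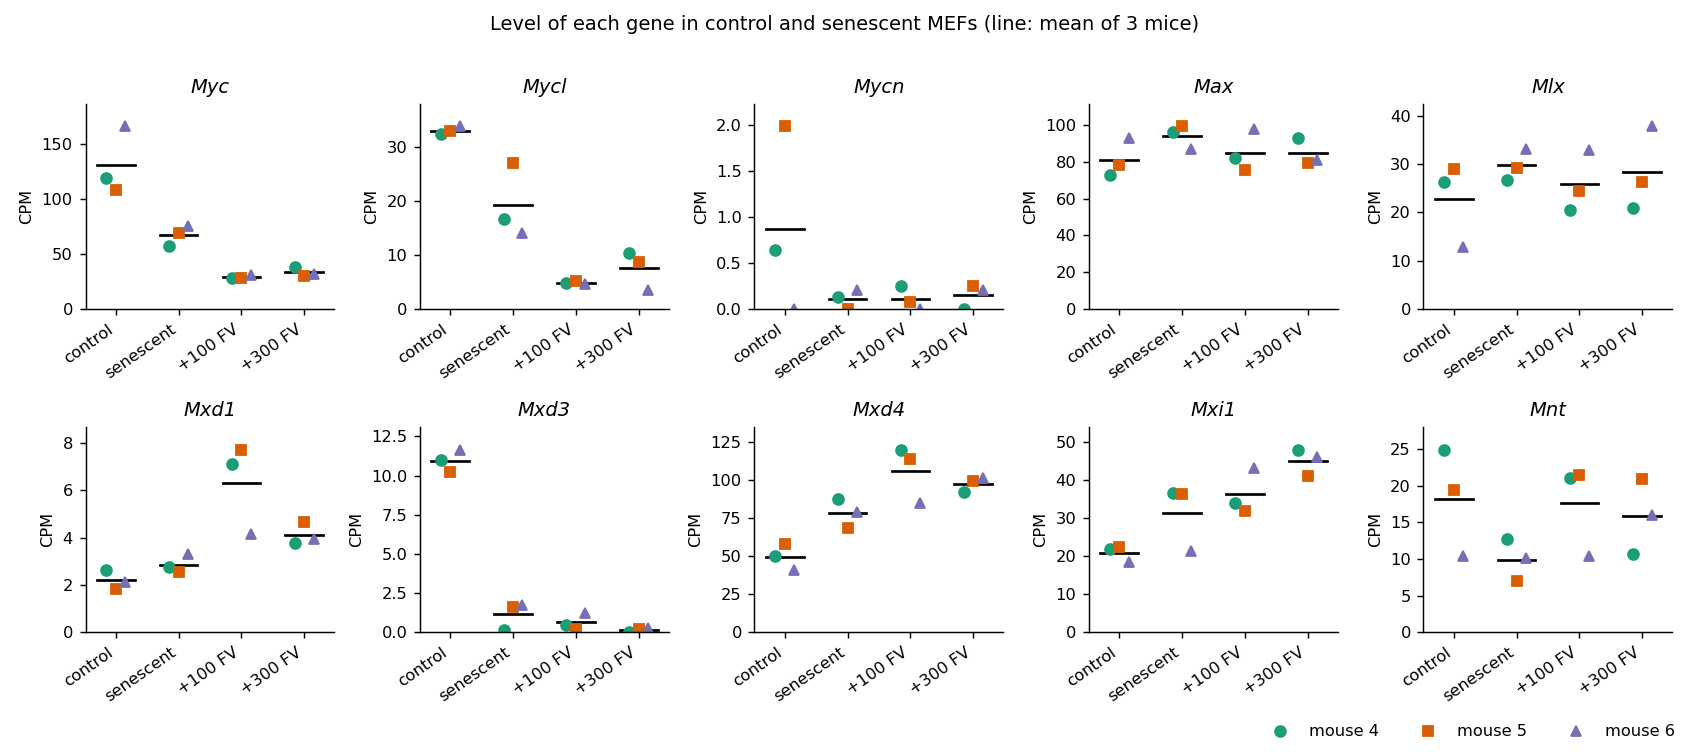
Level of each of the 10 genes in CPM (vertical axis, starting at 0) in the 4 groups (horizontal axis; +100 FV and +300 FV are senescent MEFs with Fucoidan-FV in μg/mL), with 1 point per mouse and a line at the mean of 3 mice. Myc and Mycl stepped down from control to senescent to treated MEFs, Mxd3 was at 10.21 to 11.65 CPM in control MEFs alone, and Mxd4 was above its control range in every other sample.

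Of the repressors, Mxd4 was the most abundant and moved opposite to Myc. It encodes a small MAX partner that recruits SIN3 corepressors. Its control values were 50.14, 57.91 and 40.79 CPM, against 87.82, 68.37 and 78.93 CPM in senescent MEFs. With Fucoidan-FV the values were 119.9, 113.7 and 85.09 CPM at 100 μg/mL and 92.43, 99.23 and 101.5 CPM at 300 μg/mL. Every senescent sample lay above every control sample with the libraries of control mouse 5 summed, and senescent MEFs and the low dose overlapped. Scaled apart, library 5(1) had 39.28 CPM and library 5(2) had 77.6 CPM, which is above senescent mouse 5.

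Mxi1, also called Mxd2, is a further repressor of this group. It had 21.76, 22.44 and 18.42 CPM in control MEFs and 36.65, 36.21 and 21.20 CPM in senescent MEFs. The treated values were 33.87, 31.92 and 43.08 CPM at 100 μg/mL and 47.88, 41.08 and 45.87 CPM at 300 μg/mL. Senescent mouse 6 lay within the control range, and every treated sample lay above that range.

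Mxd3, an MXD gene known from the S phase of cycling cells, was counted almost entirely in control MEFs. Its counts in mice 4, 5 and 6 were 259, 520 and 248 in control, 4, 38 and 52 in senescent, 15, 5 and 35 with 100 μg/mL and 0, 5 and 7 with 300 μg/mL Fucoidan-FV. These are 11.01, 10.21 and 11.65 CPM in control MEFs and at most 1.767 CPM elsewhere. The fall runs with that of the proliferation genes, of which 17 of 17 were DEGs with a decrease from control to senescent MEFs (median log2 fold change -3.97, against 0.07 over all genes), and their part in the result was not tested.

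Mxd1, the founding MXD repressor, known from differentiating cells, had 2.635, 1.845 and 2.115 CPM in control MEFs and 2.748, 2.543 and 3.296 CPM in senescent MEFs. The values were 7.137, 7.724 and 4.152 CPM with 100 μg/mL and 3.761, 4.659 and 3.940 CPM with 300 μg/mL Fucoidan-FV. Every treated sample lay above every untreated one, on counts of only 95 to 228 per treated sample. Mnt, the broadly expressed antagonist of MYC, had 24.94, 19.41 and 10.43 CPM in control MEFs, 12.78, 6.94 and 10.09 CPM in senescent MEFs, 21.10, 21.54 and 10.48 CPM with 100 μg/mL and 10.66, 20.98 and 16.05 CPM with 300 μg/mL. All of its groups overlapped.

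Mnt and Mxd1 belong to the genes with most of their exonic bases in a single annotated transcript (76.6% and 86.3%), and libraries differed in the median level of such genes. Over 1391 genes with nearly all bases in a single transcript, a library's median deviation from the mean of the 13 libraries was lowest in control mouse 6, at -1.31, and highest at 0.94 in mouse 5 with 100 μg/mL Fucoidan-FV on the log2 scale, set against -0.18 to 0.24 over 6681 genes with a low share. The lowest Mnt value and the lowest Mxd4 value of each group came from the library with the lowest such deviation of that group. The lowest Mxd1 value did so in every group but control. The part of this in the values of these genes was not tested beyond the offsets given next. With offsets for this share and for exon length, Mnt fell from control to senescent MEFs by 0.84 (adjusted p = 0.0335, edgeR), against a difference of -0.88 (adjusted p = 0.189) without them.

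Senescent against control MEFs asks what etoposide-induced senescence did to the network. Myc and Mxd3 fell, Mxd4 rose, and Mxd3 alone was a DEG, so that 1 of the 9 tested genes of the 10 was called, beside 8.42% of all genes tested. By the adjusted p alone it was 3 of 9, beside 11.7% of all genes. Mxd3 was 9.31-fold lower (log2 fold change -3.22, SE 0.94, adjusted p = 0.0403), and all 3 mice moved this way. Mxd4 rose by 0.66 (SE 0.19, adjusted p = 0.0416). Mycl (-0.78, SE 0.36, adjusted p = 0.196), Mnt (-0.88, SE 0.40, adjusted p = 0.189) and Mxi1 (0.59, SE 0.24, adjusted p = 0.144) did not pass, although Mxi1 did without senescent mouse 6 (0.81, adjusted p = 0.00393). The call of Mxd3 was lost when any mouse was left out (adjusted p 0.0516 to 0.0939), with library 5(2) in place of the sum of control mouse 5 (0.0594). That of Mxd4 was lost likewise when any mouse was left out (0.0574 to 0.182), with library 5(2) (0.242) and with the mouse as a replicate block (0.0548). That of Myc was lost in a fit of the 2 groups alone (0.055).

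The comparison of 100 μg/mL Fucoidan-FV with no treatment in senescent MEFs asks what treatment did to cells already arrested. Myc and Mycl were DEGs with a decrease, 2 of 9 tested genes, beside 2.69% of all genes called, 1.60% of them lower and 1.10% higher. By the adjusted p alone the same pair passed, beside 4.02% of all genes. Myc fell by 1.22 (SE 0.20, adjusted p = 0.00765). Mycl was 3.96-fold lower (log2 fold change -1.99, SE 0.38, adjusted p = 0.0126), and both genes were lower in 3 of 3 mice. Among the repressors, the differences were positive for Mxd1 (1.14, SE 0.39, adjusted p = 0.124), Mnt (0.83, SE 0.40, adjusted p = 0.268), Mxd4 (0.44, SE 0.19, adjusted p = 0.224) and Mxi1 (0.21, SE 0.24, adjusted p = 0.688), and none passed. Without senescent mouse 6 the Myc difference was -0.98, no longer past the fold threshold (adjusted p = 0.0256), and with the offsets for transcript share and length and the replicate block it was -0.99. The Mycl call was lost without senescent mouse 5 (-1.51, adjusted p = 0.0712) and without treated mouse 4, 5 or 6 (0.0641, 0.0549 and 0.053), while DESeq2 called Mxd1 as well (adjusted p = 0.0128). That was 1 of 17 alternatives for Mxd1, which ranged from 0.61 with the offsets to 1.43, with adjusted p up to 0.402.

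At 300 μg/mL the Myc difference from untreated senescent MEFs was close to that at the low dose. It fell by 1.02 (SE 0.20, adjusted p = 0.0243) and was the only DEG, 1 of 9 tested genes, beside 1.64% of all genes, with 0.885% lower and 0.752% higher. By the adjusted p alone it was also 1 of 9, beside 1.90% of all genes. Mycl was 2.55-fold lower without passing (log2 fold change -1.35, SE 0.37, adjusted p = 0.0866), and it was a DEG by DESeq2 (adjusted p = 0.0126). Mxd3 differed by -2.88 (SE 1.02, adjusted p = 0.182) on counts of at most 52 in either group, and was a DEG by DESeq2 (-2.89, adjusted p = 0.038) and by edgeR without a filter (-2.85, adjusted p = 0.0186). The Myc call was lost without senescent mouse 5 (adjusted p = 0.0532), without treated mouse 5 (0.101) or 6 (0.138), and in a fit of the 2 groups alone (0.08). Without senescent mouse 6 its difference was -0.88 (adjusted p = 0.0451), under the fold threshold, as it was with the offsets (-0.93) and without a filter (-0.99, adjusted p = 0.00896).

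**Figure D2:**
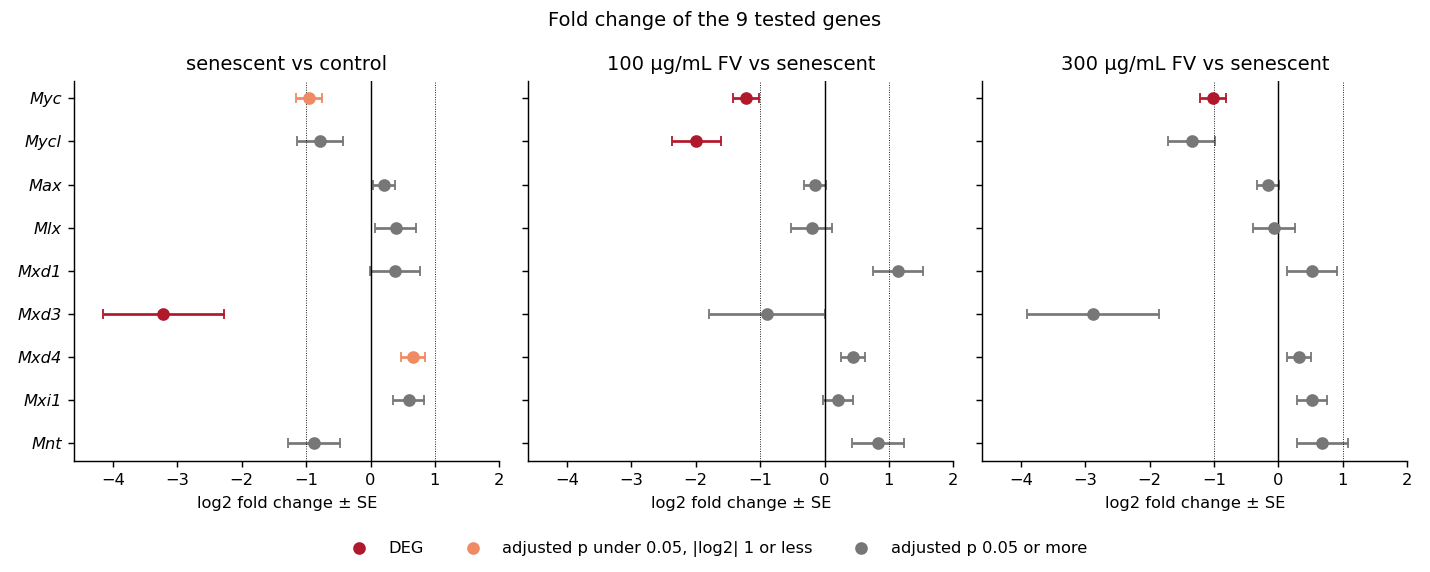
Log2 fold change (horizontal axis; points, with bars of 1 SE from the fit over all genes) of the 9 tested genes (vertical axis) in senescent against control MEFs (left) and in both doses of Fucoidan-FV (FV) against senescent MEFs without it; dotted lines mark the fold threshold of a DEG, and color gives the call. Myc lies left of 0 in all 3 comparisons, Mxd3 is the only DEG of the first, and Mycl is a DEG only in the second.

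No difference between the doses passed the test in the 9 genes. None was a DEG between 300 and 100 μg/mL, beside 0.00665% of all genes, and the adjusted p by edgeR was at least 0.97 for each, with no gene at an unadjusted p under 0.05. By DESeq2 none was a DEG either. For Myc the high dose was 0.20 above the low dose (approximate 95% interval -0.19 to 0.60). For Mycl it was 0.64 above (-0.08 to 1.36) and for Mxd1 0.62 below, with an interval of -1.39 to 0.15. Mxd3 differed by -1.98 (-3.98 to 0.02) on low counts. These intervals, from the SE under a normal distribution, are narrow for so few mice. Even so they allow differences in Mycl, Mxd1 and Mxd3 of over 1 on the log2 scale.

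Treated senescent MEFs against control MEFs combine both steps and share their libraries with the comparisons above. At 100 μg/mL, 5 of 9 tested genes were DEGs, beside 19.7% of all genes, and 6 passed the adjusted p alone, beside 26.6%. At 300 μg/mL it was 4 of 9, beside 18.0%, and 5, beside 24.4%. Myc was 4.55-fold and 3.95-fold lower (low and high dose, adjusted p = 1.71e-05 and 3.43e-05). Mycl was 6.81-fold and 4.38-fold lower in the same order (adjusted p = 0.000225 and 0.00123), and Mxd3 was a DEG with a decrease at both doses (log2 fold change -4.12 and -6.10, SE 0.98 and 1.11).

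Repressors made up the increases over control MEFs. Mxd4 was 2.14-fold higher at 100 μg/mL (adjusted p = 0.00116), or 0.92 on the log2 scale with library 5(2) alone (adjusted p = 0.014), under the fold threshold. It rose by 0.98 at 300 μg/mL (adjusted p = 0.00266), just under the fold threshold, which it passed without control mouse 4 or 5 (1.04 and 1.16) or treated mouse 4 (1.01). Mxi1 rose by 0.80 (adjusted p = 0.0264) at the low dose and was 2.15-fold higher at the high dose (adjusted p = 0.00494, and 0.89 on the log2 scale with the offsets). Mxd1 was 2.88-fold higher at 100 μg/mL (adjusted p = 0.0127) and did not pass at 300 μg/mL (0.91, SE 0.40, adjusted p = 0.114). The Mxd1 call was lost without treated mouse 4 or 5 (adjusted p = 0.0591 and 0.0685) and with the offsets (0.0568), and that of Mxi1 at the low dose without treated mouse 4 or 6 (0.0588 and 0.0934) and with library 5(2) alone (0.0518).

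Per length, the balance of MYC paralogs and repressors changed sides along the series. Myc, Mycl and Mycn summed to 98.91, 93.56 and 124.8 TPM in control MEFs of mice 4, 5 and 6, against 82.20, 91.08 and 81.07 TPM for Mxd1, Mxd3, Mxd4, Mxi1 and Mnt. In senescent MEFs the activators summed to 56.78, 70.82 and 54.64 TPM and the repressors to 115.7, 110.0 and 75.46 TPM. With 100 μg/mL Fucoidan-FV the sums were 32.49, 32.66 and 28.08 TPM against 166.8, 154.7 and 136.8 TPM, and with 300 μg/mL 40.35, 36.95 and 29.13 TPM against 147.4, 163.9 and 147.3 TPM. The ratio of activator to repressor mRNA was 1.03 to 1.54 in control, 0.491 to 0.724 in senescent, 0.195 to 0.211 with the low and 0.198 to 0.274 with the high dose. These are sums over chosen genes, given with no test.

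Within the sums a few genes dominated. Myc made up 77.4% to 93.3% of the activator TPM in every sample. Mxd4 took 41.4% to 47.7% of the repressor TPM in control MEFs and 58.9% to 75.1% in all others. The mean TPM of Myc was 88.62 ± 19.48 (SD, n = 3) in control and 28.27 ± 2.139 with 100 μg/mL, while that of Mxd4 went from 37.09 ± 5.535 to 98.90 ± 13.11. In untreated senescent MEFs the means were 51.11 TPM for Myc and 66.69 TPM for Mxd4. Myc was thus above Mxd4 in control MEFs, and Mxd4 was above Myc in senescent MEFs both without and with treatment. Max lay at 57.48 to 106.5 TPM, and its lowest value, in senescent mouse 6, has no counterpart in CPM, where the same sample had 87.36. In TPM, every treated Max value (86.45 to 105.9) lay above every control value (61.45 to 84.47), whereas in CPM these groups overlapped. The scales thus gave unlike group differences, and the sizes of the changes in the sums and their ratio hold for TPM only.

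**Figure D3:**
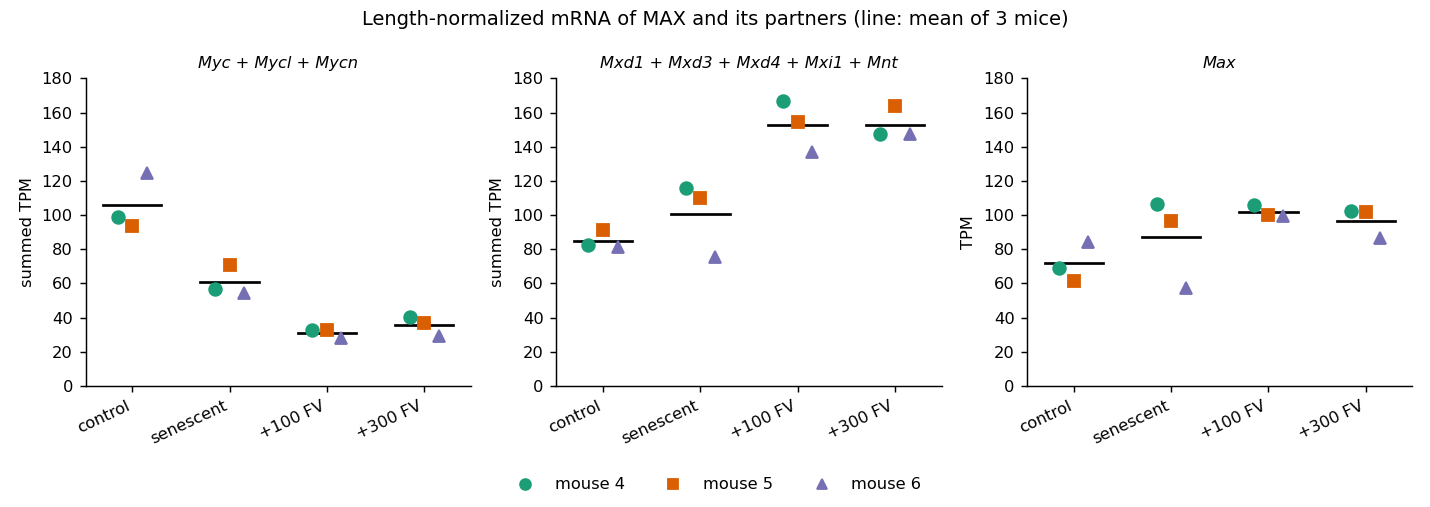
Summed TPM (vertical axes, starting at 0) of the MYC paralogs, of the 5 repressors and of Max in the 4 groups (horizontal axes; FV doses in μg/mL), with 1 point per mouse and a line at the mean. Activators go from 93.56 to 124.8 in control to 28.08 to 40.35 in treated MEFs, and the repressors to 136.8 to 166.8, above every untreated sample.

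None of the other network genes was called. Mga, the dual-specificity MAX partner, had a mean of 98.02 ± 36.46 CPM (SD, n = 3) in control and 88.46 ± 53.82 CPM in senescent MEFs, and Mlxip, the MLX partner, had 62.18 ± 2.612 and 49.53 ± 16.40 CPM. Neither they nor Bmyc, a short MYC relative, were DEGs in any comparison, although Bmyc was 2.10-fold higher with 100 μg/mL Fucoidan-FV than in control MEFs without passing (adjusted p = 0.0695). Bmyc shares 62.8% of its exonic bases with A230005M16Rik on the opposite strand and has 100.0% of them in a single transcript, which limits what its values mean. Mlxipl had at most 33 counts in a group, and Mycs had 0 in every library. Txnip and Arrdc4, the best known targets of MLX pairs, were not DEGs either, with means of 228.4 and 201.8 CPM for Txnip in control and senescent MEFs.

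Of the genes that MYC is known to activate, some fell in senescence and a few more with treatment. A list of 69 such genes, written from general knowledge with earlier results known, was tested in full. From control to senescent MEFs 19 (27.5%) were DEGs with a decrease by edgeR and none with an increase, where 3.95% of all genes were lower and 4.47% higher. DESeq2 called 19 and 0, and no gene of the list was higher at an unadjusted p under 0.05 by either tool. Their median log2 fold change was -0.86, against 0.07 over all genes, and it was -1.18, -1.09 and -0.31 in mice 4, 5 and 6. With 100 μg/mL Fucoidan-FV 4 (5.8%, beside 1.60%) were DEGs with a decrease, or 2 by DESeq2, the median being -0.47 against -0.02 over all genes. With 300 μg/mL it was 2 (2.9%, beside 0.885%), or 3 by DESeq2, with a median of -0.46 against 0.00, which was -0.25 without senescent mouse 6. The median at 100 μg/mL was -0.20 without senescent mouse 6 and as low as -0.50 when another mouse was left out. The 17 proliferation genes had lower medians than the targets with treatment, -0.93 at 100 μg/mL and -0.87 at 300 μg/mL, with 5.88% DEGs with a decrease at each dose. Their part in the target results was not tested.

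The targets with the largest change in senescence were Tfrc, the transferrin receptor, Dkc1, the pseudouridine synthase dyskerin, Tcof1, a factor of ribosomal RNA transcription, Shmt2, the mitochondrial serine hydroxymethyltransferase, and Grwd1, a ribosome assembly chaperone. Tfrc went from 177.4 ± 58.77 to 32.59 ± 12.57 CPM (SD, n = 3), a log2 fold change of -2.45 (adjusted p = 0.000589). Dkc1 (-2.27), Tcof1 (-1.66), Shmt2 (-1.56) and Grwd1 (-1.51) were DEGs too. Under 100 μg/mL Fucoidan-FV Tcof1 differed from its senescent level by -0.05 (adjusted p = 0.917), whereas Shmt2 fell further (-0.91, adjusted p = 0.0148).

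Other targets moved with treatment. Las1l, which acts in ribosomal RNA maturation, had 144.3 ± 41.71 CPM in control and 140.1 ± 21.66 CPM in senescent MEFs, and fell to 54.85 ± 3.878 CPM at 100 μg/mL and 63.28 ± 5.843 CPM at 300 μg/mL (SD, n = 3; adjusted p = 0.00542 and 0.0148). Nop56, a core protein of small nucleolar ribonucleoproteins, was a DEG with a decrease in senescence (-1.20, adjusted p = 0.00208) and again at 100 μg/mL (-1.14, adjusted p = 0.00954), and it fell by 0.86 at 300 μg/mL (adjusted p = 0.0491). Nop56 was the only target that was a DEG in both steps with the low dose. Sord, Dctpp1 and Nme1, named for the size of their differences, did not pass, with adjusted p at the dose concerned of 0.366, 0.562 and 0.0947.

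**Figure D4:**
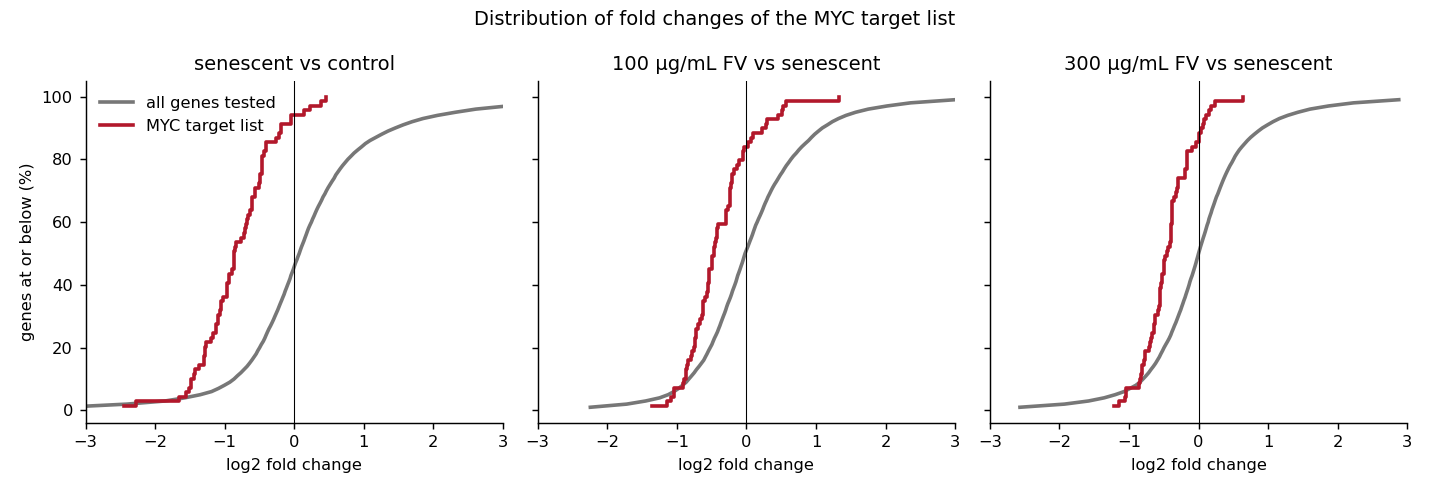
Cumulative share of genes (vertical axis, percent) at or below a log2 fold change (horizontal axis) for the 69 genes of the MYC target list and for all 15034 genes tested, drawn at percentiles. The list lies to the left in all 3 panels, with medians of -0.86, -0.47 and -0.46 against 0.07, -0.02 and 0.00.

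Of 40 genes whose proteins act on MYC, 9 (22.5%, beside 3.95% of all genes) were DEGs with a decrease from control to senescent MEFs, with a median of -0.43 against 0.07 over all genes. None was a DEG by edgeR with either dose, the medians being 0.01 and -0.01 against -0.02 and 0.00. At an unadjusted p under 0.05, 1 was higher and 6 lower at 100 μg/mL, and 1 and 5 at 300 μg/mL, and DESeq2 called 1 lower at 100 μg/mL and 0 at 300 μg/mL. Plk1 (-4.38) and Aurka (-3.19), mitotic kinases, Cip2a (-3.45), which shields MYC from a phosphatase, Skp2 (-2.60), a ubiquitin ligase subunit, and Usp37 (-1.69), a deubiquitinase, led the decrease, with adjusted p from 7.66e-05 to 0.0153. Plk1 and Aurka are themselves mitotic genes. With treatment Aurka differed by a further -1.55 (low dose, adjusted p = 0.0563) and -1.08 (high dose, adjusted p = 0.222). Kdm5a, a histone demethylase, and Mycbp2, a ubiquitin ligase, had positive differences of 0.85 and 0.71 at 100 μg/mL that did not pass (adjusted p = 0.255 and 0.257).

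Genes that MYC is known to repress gave mixed results. Of 12, Cdkn1a alone was a DEG with an increase in senescence by edgeR and Cdkn1b alone with a decrease, beside 4.47% and 3.95% of all genes. Ndrg1 and Cdkn1c were DEGs with an increase at both doses, beside 1.10% and 0.752% of all genes. DESeq2 called 2 higher and 1 lower in senescence and 3 higher at each dose. The medians of the 12 were 0.35, 0.09 and 0.11, against 0.07, -0.02 and 0.00 over all genes. Cdkn1a, the p53-induced inhibitor of cyclin-dependent kinases, went from 467.9 ± 83.21 to 1652 ± 187.3 CPM (SD, n = 3) and was at 1440 ± 179.9 and 1660 ± 66.99 CPM with the low and the high dose. Cdkn1b, a related inhibitor, differed by -1.43 (adjusted p = 0.00937) in senescence. Ndrg1, a stress-response gene, was at 8.856 and 8.291 CPM in control and senescent MEFs and rose to 27.92 ± 4.156 CPM at 100 μg/mL and 25.59 ± 8.231 CPM at 300 μg/mL (adjusted p = 0.0164 and 0.0326).

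Cdkn1c, a kinase inhibitor of the same family as Cdkn1a, rose from 34.16 ± 3.954 to 86.18 ± 11.66 and 106.8 ± 16.08 CPM (adjusted p = 0.00448 and 0.00175). Tgfbr2, a receptor of TGF-beta, was 2.15-fold and 2.09-fold higher with treatment without passing (adjusted p = 0.0517 and 0.0869). Ndrg4 rose by 0.91 in senescence (adjusted p = 0.0156), and Ndrg2 (1.24, adjusted p = 0.0566) and Cdkn2b (1.86, adjusted p = 0.112) did not pass.

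The genes most like each member across the 12 samples were named by Pearson's r of log2 CPM, as a description over 12645 genes and with the group differences shared. For Myc they were Socs2 (0.991), Ciapin1 (0.991) and Serbp1 (0.987), and for Mycl they included Npnt (0.988) and Lpin3 (0.975). Mxd3 was nearest to Lsm2 (0.969), Poc1a (0.955) and Lsm6 (0.951). For Mxd4 they were Ahnak2 (0.978), Mturn (0.976) and Notch3 (0.975), and for Mxi1 they were Elmo2 (0.985), Pml (0.978) and Per3 (0.974). The nearest gene was Riok3 for Max (0.933), Taf9b for Mlx (0.917), Prkaa2 for Mxd1 (0.915) and Mex3b for Mnt (0.966).

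For the gene and comparison pairs given next, every alternative kept the direction, while several ended the call. For Myc 17 of 17 alternatives gave a lower level in each of the 3 comparisons, from -1.24 to -0.75 in senescence, -1.27 to -0.98 at 100 μg/mL and -1.13 to -0.88 at 300 μg/mL. Adjusted p stayed under 0.05 in 16, 17 and 13 of these. Mycl at 100 μg/mL ranged from -2.04 to -1.51 and passed in 13 of 17, Mxd4 in senescence from 0.48 to 0.85 and passed in 5 of 17, and Mxd3 in senescence from -3.70 to -2.70 and passed in 9 of 16.

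**Figure D5:**
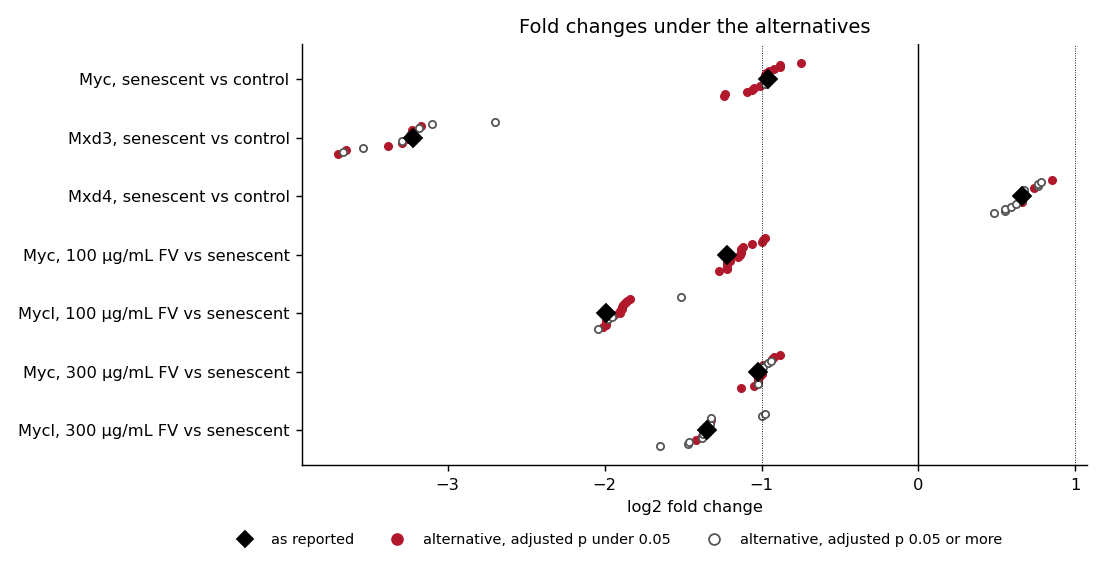
Log2 fold change (horizontal axis) of the called genes, and of Mycl at the high dose, in each comparison (vertical axis) as reported (diamond) and under each alternative (circles, filled where the adjusted p is under 0.05); dotted lines mark the fold threshold. No circle crosses 0, and the Myc values lie around -1, from -1.27 to -0.75.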

How the data were processed

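RNA of MEFs was sequenced in 13 libraries of 4 groups, 3 mice each, numbered 4, 5 and 6 in the labels. The authors trimmed the reads (Trimmomatic), aligned them to GRCm39 with STAR 2.7.11b and deposited RSEM 1.3.1 expected counts without normalization, and TPM normalized for length and library size by RSEM. Here expected counts were rounded, libraries 5(1) and 5(2) were summed, and genes were filtered by filterByExpr (minimum count 10, minimum total count 15). The quasi-likelihood test of edgeR 4.0.16 (R 4.3.3) was used on TMM-scaled counts, in 1 model of the 4 groups with Benjamini-Hochberg adjustment. The code was tested on simulated data. TPM were averaged over libraries 5(1) and 5(2), summed over genes and not tested. Totals of 22782536 to 31278750 counts set the precision. The p-values measure the spread between samples of a group, in which differences between mice and between libraries cannot be told apart.

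The members and gene lists were chosen with earlier results of these data known. Besides the members and the other network genes, the text names from each list the 5 tested genes with the largest absolute log2 fold change in senescence and the 3 at each dose (those averaging 1 CPM or more in the higher group), and of the 3 genes most correlated with each member all or the first, with 1 item not reported here. Promoters come from GRCm39 at the starts of the canonical transcripts. The main fit held no mouse term, so its tests are unpaired. Samples with 1 mouse number were paired only in the replicate block and in differences given by mouse. Deviations of such samples from the group means correlated by -0.204 to 0.425 over 18 pairs (median -0.00627, 8 over 0.1). With the mouse as a replicate block, Mxd4 in senescence had a log2 fold change of 0.67. Alternatives were DESeq2 1.42.0, RLE factors, other filters, a fit of 2 groups, the libraries of control mouse 5 apart or alone, a replicate block by mouse, fits without 1 mouse, and the adjusted p alone. Offsets for the share of single-transcript sequence and exon length were chosen after seeing the data.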

Additional observations from a re-analysis of the deposited data

How the results depend on the processing

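The counts of called genes among the 9 moved with the setting. In senescence against control it was 2 instead of 1 without a filter, 2 with the offsets and with the offsets and replicate block, 3 by the adjusted p alone, 0 with at least 10 counts in every sample, where Mxd3 was not tested, 0 with library 5(2) alone, and 0 to 1 when a mouse was left out. At 100 μg/mL against senescent MEFs it was 1 instead of 2 with the offsets, with or without the block, and 1 to 2 with a mouse left out. At 300 μg/mL it was 2 instead of 1 without a filter (Mycl and Mxd3, with Myc at -0.99), 3 by DESeq2 (Myc, Mycl and Mxd3), 1 with the offsets (Mycl in place of Myc), 0 in a fit of 2 groups, and 0 to 1 with a mouse left out. The replicate block alone changed no count of called members, and the call of no member by the adjusted p but Mxd4 in senescence (0.0548). The target median at 100 μg/mL was -0.50 to -0.20 with a mouse left out, and the cofactor median at 300 μg/mL was -0.14 with the offsets and -0.15 with the block added.

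Genes called over the whole table at 100 μg/mL numbered 405, against 800 without a filter, 770 by DESeq2, 168 in a fit of 2 groups and 136 to 365 with a mouse left out. At 300 μg/mL they numbered 246, against 580, 606, 101 and 46 to 220 in the same order, and 404 with the offsets. In senescence they numbered 1266, against 699 in a fit of 2 groups. The median of all genes for 100 μg/mL against control MEFs moved from 0.09 to 0.26 without a filter. Between the doses 1 gene was called, against 2 without a filter and 0 with a mouse left out.

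Among the 9 genes, signs turned only in Max, Mlx and Mnt, 34 times, with an adjusted p of at least 0.538. With the offsets, and with the offsets and block, Max at 100 μg/mL against senescent MEFs was 0.00 and 0.00, Mlx 0.06 and 0.05 at 100 μg/mL and 0.08 and 0.06 at 300 μg/mL, and Mnt between the doses 0.07 and 0.10. Mnt at 100 μg/mL against control MEFs was 0.06 with RLE factors and by DESeq2, 0.02 without a filter, 0.07 with at least 10 counts in every sample, and 0.08 in a fit of 2 groups and with library 5(1) alone. With a mouse left out, Max ranged from -0.26 to 0.04 at 100 μg/mL and -0.23 to -0.07 at 300 μg/mL against senescent MEFs, -0.09 to 0.10 between the doses, and -0.05 to 0.33 and -0.02 to 0.23 against control MEFs. Mlx ranged from -0.41 to 0.02 and -0.33 to 0.10 against senescent MEFs, -0.14 to 0.34 between the doses and -0.02 to 0.55 at 100 μg/mL against control MEFs. Mnt ranged from -0.42 to 0.07 between the doses, and -0.21 to 0.43 and -0.45 to 0.16 against control MEFs. List medians near 0 turned sign as well. With a mouse left out, that of the cofactors was -0.11 to 0.22 at 100 μg/mL and -0.07 to 0.09 at 300 μg/mL, and that of the 3 other MAX network genes tested was -0.53 to 0.21 in senescence. The cause was not tested. Depth limits Mycn, Mxd1 and Mxd3, whose counts were low.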

Other observations

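The libraries of control mouse 5 gave unlike values for several network genes. From 5(1) to 5(2), Mxd1 went from 12 to 82 counts, a log2 CPM difference of 2.84, and Mxd4 differed by 0.98, Mnt by 0.67 and Mxi1 by 0.40. Myc differed by -0.23, Max by -0.20, Mlx by -0.46, Mxd3 by -0.62 and Mycl by -0.72. Among the other genes of the network, Bmyc differed by 1.10 and Mga by -0.59. Both libraries carry the number of 1 mouse, so these are differences between libraries and not between groups.

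In the promoters of the gene lists, CACGTG was found in 15 of 69 MYC targets (21.7%) and in 5 of 40 cofactors (12.5%), and the Bmyc window held it 202 bases before the start.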
